A study of Mus musculus with 3 samples.

Results

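Integrins are the receptors with which cells hold on to the matrix around them and to each other, and laminins are the large basement membrane proteins that many of them bind. The genes described here are the features whose symbol names an integrin alpha chain, 1 of the 8 integrin beta chains or a laminin alpha, beta or gamma chain, chosen by name alone. They came to 37 of 33696 gene features, namely 18 alpha chains, 8 beta chains and 11 laminin chains, and all 37 had at least 1 unique molecular identifier (UMI), the tag that counts single captured RNA molecules. Each is followed by cell class and library through nuclei of the mouse abdominal aorta.

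The nuclei came from ApoE-/- mice of the C57Bl/6 strain, which lack apolipoprotein E and develop atherosclerosis, and every mouse was given a high fat diet for the 20 weeks of exposure. One library came from mice in room air (the room air library), 1 from mice exposed to cigarette smoke that had no abdominal aortic aneurysm (the smoke library) and 1 from smoke-exposed mice with an aneurysm (the aneurysm library). With 1 library per group no difference has a replicate check, and the intervals below are 95% intervals that cover counting error only. The labels state neither age, sex nor the number of animals in a library, and no group with a working Apoe gene or a normal diet was analysed.

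After filtering, 11022, 14001 and 5707 nuclei remained in the room air, smoke and aneurysm libraries, with medians of 4058.5, 6225 and 1443 UMIs, so the aneurysm library was the shallowest. Classes were rebuilt by clustering and are called "-like" because their names rest on marker genes. Macrophage-like nuclei made up 48.3%, 45.0% and 21.9% of the libraries in that order, endothelial-like 17.1%, 15.2% and 17.7%, fibroblast-like 4.44%, 4.76% and 12.8%, and smooth muscle-like 3.53%, 3.46% and 2.30%. Adipocyte-like nuclei, which belong to the fat around the vessel, went from 0.345% and 1.49% to 21.8% in the aneurysm library. Clusters 12 and 13 stayed without a name. Cluster 12 scored highest for smooth muscle markers and had Cemip and Notch3 among its leading genes, and cluster 13, led by Grem1, scored almost equally for pericyte and fibroblast markers. Of 35295 distinct barcodes, 101 occurred in more than 1 library.

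An integrin is a pair of 1 alpha and 1 beta chain spanning the membrane, and the pair decides what is bound. The alpha chains Itga3, Itga6 and Itga7 pair with Itgb1, or Itga6 with Itgb4, to bind laminins, Itga1, Itga2, Itga10 and Itga11 pair with Itgb1 to bind collagens, and Itga5, Itga8, Itgav and Itga2b bind matrix proteins through the short RGD motif. Itgal, Itgam, Itgax and Itgad pair with Itgb2 on leukocytes, Itgae pairs with Itgb7, and Itga4 and Itga9 bind VCAM-1 and matrix ligands such as osteopontin. A laminin is a trimer of 1 alpha, 1 beta and 1 gamma chain. In arteries, laminins with the Lama4 or Lama5 chain lie under the endothelium, and those of smooth muscle and fibroblasts hold Lama2, Lama4 or Lama5. RNA of a chain does not show that the pair or trimer is made.

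Levels are given as CPM, the UMIs of a gene per 1000000 UMIs of all nuclei of a class in a library. Since long genes and genes with many introns give more nuclear UMIs, levels are compared for 1 gene across classes and libraries and never between genes. In the 6 units with at least 50 nuclei in every library (the 4 classes above and clusters 12 and 13), the mean CPM over the libraries was highest in smooth muscle-like nuclei for 11 of the 37 genes, in macrophage-like nuclei for 8, in cluster 12 for 7, in fibroblast-like nuclei for 6, in endothelial-like nuclei for 3 and in cluster 13 for 2. The gaps to the next unit were small for many of them, and the intervals of the highest and the next unit stood apart in all 3 libraries for 4 of the 8 macrophage-like genes, 4 of the 7 of cluster 12, and 2 each of the smooth muscle-like, fibroblast-like and endothelial-like genes. At least 20 CPM was reached in some unit and library by 33 genes, and Lamc3, Itgb6 and Itgad were among those that stayed below it everywhere.

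**Figure D1:**
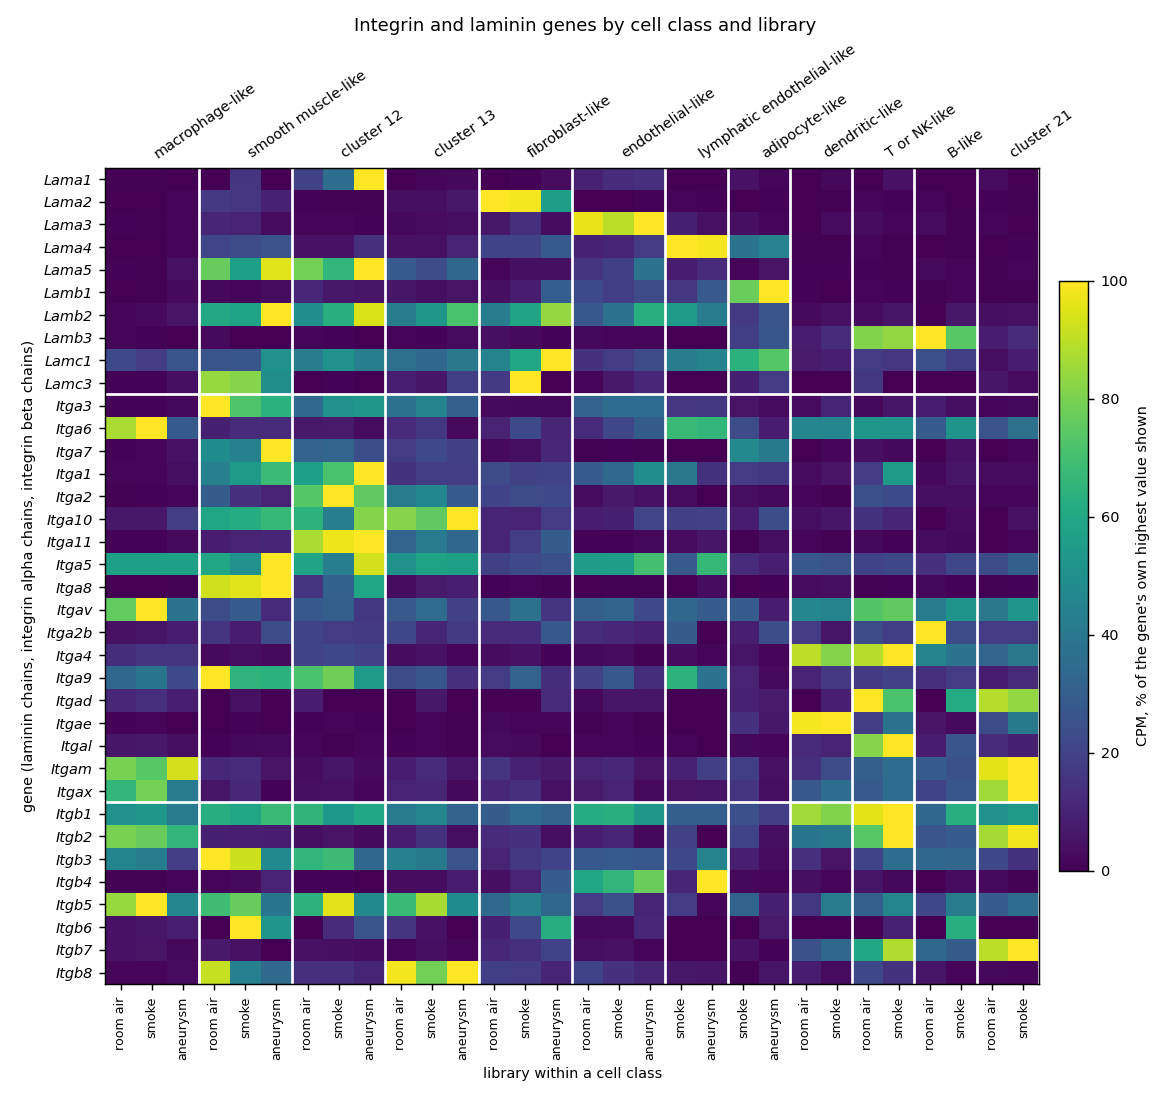
Each row is 1 integrin or laminin gene and each column 1 library within a cell class or cluster with at least 50 nuclei in that library; colour gives the gene's CPM as a percentage of its own highest value shown, so rows cannot be compared with each other for level. Lama2 is brightest in fibroblast-like nuclei, Lama3 in endothelial-like nuclei, Itga8 in smooth muscle-like nuclei, and Itgal, Itga4 and Itgb7 in leukocyte columns.

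The start regions of 4 genes with steep differences between classes are shown because they belong to the leukocyte genes Itgam and Itgax, which neighbour each other on chromosome 7, and to the matrix and muscle genes Lama2 and Itga8. Each holds 250 bases before and 50 after the transcription start in the gene's own direction, from RefSeq on build GRCm38.p6, at chr7:128062390-128062689 on the plus strand for Itgam, chr7:128129300-128129599 on the plus strand for Itgax, chr10:27616893-27617192 on the minus strand for Lama2 and chr2:12301895-12302194 on the minus strand for Itga8. Capitals mark 2 motifs, the core bound by the macrophage factor PU.1 (GAGGAA or its reverse complement TTCCTC), and the CArG box bound by serum response factor, searched on both strands, which here occurs once.
Itgam: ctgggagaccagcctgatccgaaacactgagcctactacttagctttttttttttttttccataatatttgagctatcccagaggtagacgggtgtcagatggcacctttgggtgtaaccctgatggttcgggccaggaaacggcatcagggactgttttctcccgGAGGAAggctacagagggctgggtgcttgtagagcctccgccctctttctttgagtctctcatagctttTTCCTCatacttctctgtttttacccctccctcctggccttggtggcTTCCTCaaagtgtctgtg
Itgax: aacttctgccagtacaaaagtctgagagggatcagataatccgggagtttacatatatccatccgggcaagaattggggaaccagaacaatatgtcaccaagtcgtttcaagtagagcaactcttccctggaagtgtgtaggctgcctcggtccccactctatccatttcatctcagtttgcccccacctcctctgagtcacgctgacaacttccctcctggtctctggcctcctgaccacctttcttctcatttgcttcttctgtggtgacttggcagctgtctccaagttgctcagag
Lama2: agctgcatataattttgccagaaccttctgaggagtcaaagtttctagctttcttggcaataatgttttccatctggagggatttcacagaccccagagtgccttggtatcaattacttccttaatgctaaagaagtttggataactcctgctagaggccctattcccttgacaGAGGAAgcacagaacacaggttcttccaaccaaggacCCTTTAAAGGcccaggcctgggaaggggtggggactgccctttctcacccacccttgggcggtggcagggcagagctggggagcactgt
Itga8: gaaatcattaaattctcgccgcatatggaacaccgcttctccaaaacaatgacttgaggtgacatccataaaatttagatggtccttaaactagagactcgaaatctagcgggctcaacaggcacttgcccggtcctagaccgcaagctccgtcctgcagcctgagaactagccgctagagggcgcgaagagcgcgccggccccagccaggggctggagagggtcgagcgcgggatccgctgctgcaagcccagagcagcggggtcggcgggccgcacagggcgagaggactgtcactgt
Itgam held 3 PU.1 cores and Itgax none, so the neighbours with highest levels in the same class of the wall differ in this window. Lama2 held 1 PU.1 core and the CArG box, and Itga8 held neither. Of 37 genes, 23 had a start region to search, with 26 start regions in all. A PU.1 core lay in 14 of these 26 start regions, against 28.3% of all 32851 start regions. A CArG box lay in 2 of the 26 (Itgb6 and Lama2), against 1.63%. These matches are letters in a window, and binding was not measured.

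Lama2 and Lama3 were each highest in 1 class of the wall in every library. Lama2, the alpha chain of muscle and connective tissue laminins, was at 1475 CPM (1422 to 1529) in room air, 1455 (1418 to 1493) in smoke and 819 (773 to 867) in aneurysm in fibroblast-like nuclei. Smooth muscle-like nuclei came next with 247, 236 and 134 CPM of Lama2, and endothelial-like nuclei had 5.35, 4.53 and 13.1 CPM. In both classes with much Lama2, room air and smoke overlapped and the aneurysm library stood below them. Lama3, a chain best known from epithelial basement membranes, was at 168 (162 to 174), 156 (150 to 161) and 174 CPM (159 to 189) in endothelial-like nuclei in the same order. The 3 libraries lay close together for Lama3 there, and the next unit, smooth muscle-like nuclei, had 18.7, 16.6 and 5.84 CPM.

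Lama4, the other endothelial and mesenchymal chain, was spread over the wall. It was at 368, 399 and 453 CPM in smooth muscle-like and at 356, 358 and 497 CPM in fibroblast-like nuclei. The intervals of these classes overlapped in room air and in aneurysm, and smooth muscle-like nuclei lay above in smoke. Outside the wall classes Lama4 was higher still, at 1760 CPM in smoke and 1735 in aneurysm in lymphatic endothelial-like nuclei and at 674 and 782 in adipocyte-like nuclei. Lama5, which seals the endothelial basement membrane, was at 150, 126 and 190 CPM in cluster 12, at 146, 108 and 181 in smooth muscle-like nuclei and at 29.1, 36.4 and 72.5 in endothelial-like nuclei. Lama1, the chain of early embryos, was low: cluster 12 had 4.19, 7.86 and 21.8 CPM from 18, 68 and 15 UMIs, and no other wall unit passed 3.32 CPM.

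The beta and gamma chains were broader. Lamb1 was at 75.0, 62.0 and 77.3 CPM in endothelial-like nuclei and at 14.0, 25.9 and 101 in fibroblast-like nuclei, and it reached 259 CPM in smoke and 335 in aneurysm in adipocyte-like nuclei. Lamb2 lay between 15.0 and 55.5 CPM in every wall unit other than macrophage-like nuclei, where it was at 1.06, 1.30 and 2.85. Lamc1, the gamma chain of most laminins, was at 250, 336 and 558 CPM in fibroblast-like and 237, 284 and 240 in cluster 12, and also at 123, 96.2 and 146 in macrophage-like nuclei, where the other laminin chains except Lama2 and Lama4 were under 10 CPM in every library. The epithelial chain Lamb3 was at most 3.01 CPM in wall units. It stood out in B-like nuclei, at 76.3 CPM in room air and 56.5 in smoke from 30 and 48 UMIs, and in T or NK-like nuclei at 61.7 and 63.9, but its gene overlaps Hsd11b1 and G0s2 on the opposite strand, and whether counting used strand is not stated.

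**Figure D2:**
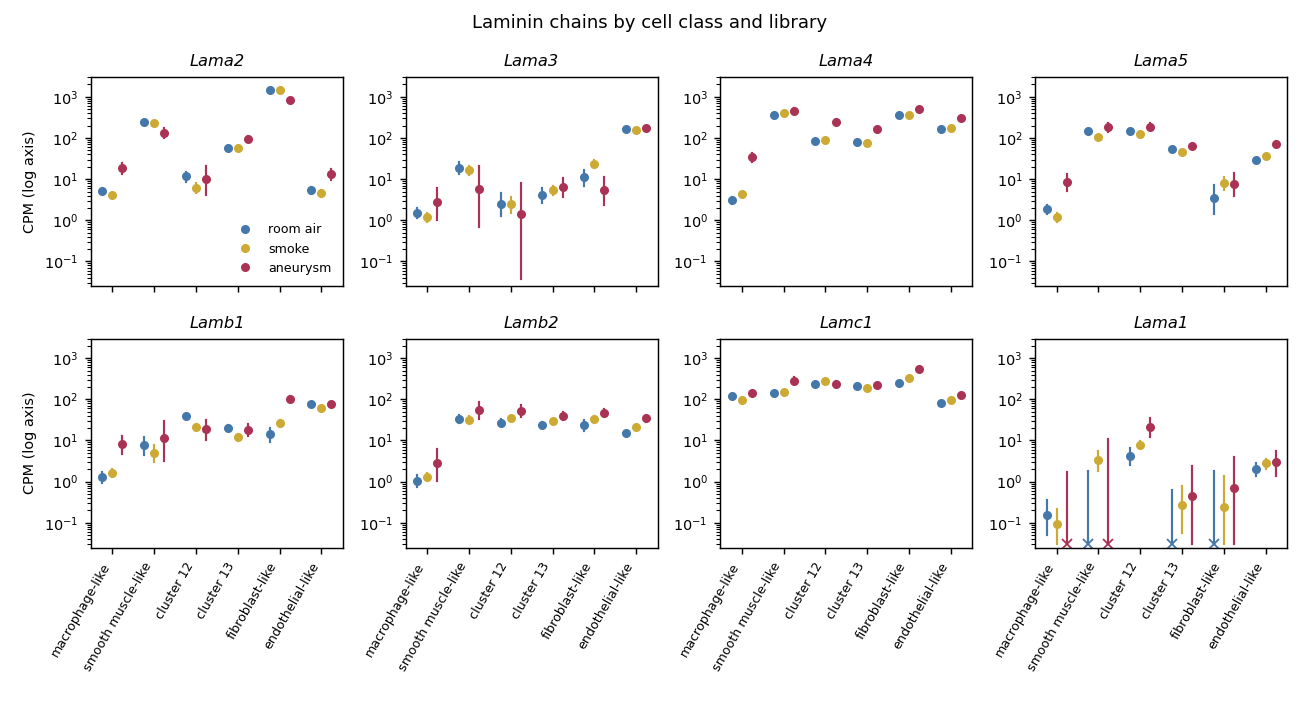
Points give the CPM of 8 laminin chains (log axis) in 4 cell classes and 2 unnamed clusters, coloured by library, with 95% Poisson intervals for counting error; crosses at the foot mark 0 UMIs, and intervals are drawn down to the foot of the axis. Lama2 is highest in fibroblast-like nuclei and Lama3 in endothelial-like nuclei in each library, and the aneurysm points of macrophage-like nuclei lie above those of the other libraries for Lama2, Lama4, Lama5 and Lamb1.

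Among the laminin receptors, Itga6 had its highest class level in macrophage-like nuclei in 2 of the 3 libraries. Within the endothelial-like class, cluster 7 held more of it than that level, as given below. It was at 360 CPM (353 to 366) in room air, 412 (407 to 417) in smoke and 116 (102 to 132) in aneurysm in macrophage-like nuclei, so that the aneurysm library stood far below the others. Endothelial-like nuclei had 49.8, 87.6 and 122 CPM of Itga6, which overlaps the macrophage-like level in the aneurysm library. Lymphatic endothelial-like nuclei lay above both classes in that library, with 35 Itga6 UMIs among 128537 UMIs of 69 nuclei. The partner of Itga6 for hemidesmosomes, Itgb4, was at 124, 138 and 162 CPM in endothelial-like nuclei, the class that also led for Lama3. Itga3 was at 95.8, 69.4 and 61.3 CPM in smooth muscle-like nuclei, and Itga7, the laminin receptor of muscle, at 46.9, 42.4 and 96.4 CPM there.

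Collagen receptors were highest in cluster 12. Itga1 was at 385, 489 and 684 CPM in cluster 12 and at 299, 370 and 467 in smooth muscle-like nuclei. Itga11, a receptor for fibrillar collagen known from fibroblasts, was at 222, 248 and 254 CPM in cluster 12 and at most 104 in any other unit. Itga2 was at 192, 261 and 198 CPM in cluster 12, with cluster 13 next at 108, 122 and 74.1. For both Itga11 and Itga2 the intervals of cluster 12 stood apart from those of the next unit in every library. Itga10 was highest in cluster 13, at 32.1, 29.6 and 39.2 CPM, which did not stand apart from cluster 12 at 25.4, 16.8 and 32.0.

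Of the RGD receptors, Itga8, known from smooth muscle, was a gene of contractile nuclei. It was at 2211 CPM (2148 to 2276) in room air, 2268 (2221 to 2316) in smoke and 2381 (2220 to 2550) in aneurysm in smooth muscle-like nuclei, 3 values whose intervals overlap. Cluster 12 had 364 (346 to 382), 738 (720 to 757) and 1409 CPM (1322 to 1501) of Itga8, so here the 3 libraries stood apart, although 189 of the 970 UMIs in aneurysm came from 1 nucleus. Itgav was at 504, 665 and 254 CPM in macrophage-like nuclei and at 202, 214 and 148 in endothelial-like nuclei. T or NK-like nuclei had a mean Itgav level of 494.8 CPM over room air and smoke. The fibronectin receptor chain Itga5 was at 159, 136 and 269 CPM in smooth muscle-like nuclei, 157, 115 and 250 in cluster 12, 153, 152 and 153 in macrophage-like nuclei, and 50.6, 59.1 and 65.7 in fibroblast-like nuclei. Itga2b, the platelet chain, did not pass 6.99 CPM in a wall unit.

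Itga9 was at 1434 CPM (1383 to 1486), 930 (901 to 961) and 914 (816 to 1021) in smooth muscle-like nuclei and at 1028, 1123 and 770 in cluster 12. Here the room air library was the high one in smooth muscle-like nuclei, and smoke and aneurysm overlapped. Itga4, which lets leukocytes hold VCAM-1, was at 1252 and 1410 CPM in T or NK-like nuclei in room air and smoke and at 1272 and 1150 in dendritic-like nuclei. Macrophage-like nuclei had 187, 219 and 211 CPM of Itga4, below the 288, 308 and 273 of cluster 12.

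The leukocyte chains follow. Itgam, the alpha chain of Mac-1, was at 132 CPM (128 to 136) in room air, 122 (120 to 125) in smoke and 154 (137 to 171) in aneurysm in macrophage-like nuclei, against 17.1 on average in fibroblast-like nuclei, the next wall unit. Itgax, the CD11c chain of dendritic cells and of foam cells in plaque, was at 182 (178 to 187), 218 (214 to 222) and 113 CPM (99.3 to 129) in macrophage-like nuclei, with the aneurysm library lowest. The unnamed leukocyte cluster 21, which scored highest for dendritic markers, was above the macrophage-like level for both. It had Itgam at 158 and 165 CPM and Itgax at 236 and 276 in room air and smoke. Itgal, the LFA-1 alpha chain, was at 178 and 217 CPM in T or NK-like nuclei in room air and smoke, against 13.6 and 14.0 in macrophage-like nuclei. Within the macrophage-like class Itgal was at 78.8 and 84.6 CPM in cluster 10, of which it is among the 10 leading genes, and at no more than 13.7 CPM in the other clusters in any library. Itgae, the CD103 chain of cross-presenting dendritic cells and resident T cells, was at 146 and 148 CPM in dendritic-like nuclei in room air and smoke, where it was also among the 10 leading genes of 1 cluster. Itgal and Itgae were not set beside the aneurysm library in those classes, because it held only 12 T or NK-like and 7 dendritic-like nuclei.

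Beta chains were spread more widely. Itgb1, the partner of most alpha chains, was at 367, 346 and 400 CPM in smooth muscle-like nuclei, 365, 372 and 312 in endothelial-like nuclei and 304, 312 and 241 in macrophage-like nuclei. Its mean over room air and smoke was higher in T or NK-like (577.5 CPM) and dendritic-like nuclei (493.4 CPM). Itgb2 was at 91.6, 88.4 and 75.6 CPM in macrophage-like nuclei and between 2.29 and 17.0 in the other wall units. Itgb5 was at 376, 446 and 206 CPM in macrophage-like nuclei and at 289, 425 and 214 in cluster 12. Itgb3 was at 122, 112 and 58.4 CPM in smooth muscle-like nuclei. Itgb8, which with Itgav activates latent TGF-beta, was at 391 (375 to 407), 312 (302 to 323) and 398 CPM (372 to 424) in cluster 13, where room air and aneurysm overlapped and smoke lay below. Itgb7 was highest in cluster 21, with 75.0 CPM in room air and 83.6 CPM in smoke.

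The comparison of smoke with room air asks what differed with exposure, and of these libraries only the smoke label states that there was no aneurysm. The comparison of aneurysm with smoke asks what differed with the aneurysm among exposed mice. Both use the smoke library, so their values are not independent. A gene was counted as higher or lower when its CPM ratio was at least 1.5 in that direction with a 95% counting interval that left out 1, over genes with at least 20 UMIs summed over both libraries. The share of all genes past that rule is the background against which each count stands. Free RNA from other cells adds UMIs to every nucleus, so it is also given whether a gene lay below its level in all other nuclei of the library where it was higher.

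Few of these genes differed between smoke and room air in macrophage-like nuclei. Of 35 genes measured, 1 was higher (2.86%, background 7.49%) and 1 lower (2.86%, background 3.46%), shares below the background. Itga7 went from 0.758 to 1.40 CPM (ratio 1.84, 1.16 to 3.02) and Lama5 from 1.88 to 1.19 (ratio 0.635, 0.441 to 0.914), both below their level in other nuclei. With every nucleus thinned to 500 UMIs the log2 ratio of Lama5 was 1.08, in the opposite direction. The median log2 ratio of the 35 genes was 0.20, against 0.03 for all 17100 genes. Itgav and Itga6, among the chains with high levels in this class, were 1.32 and 1.15 times as high in smoke, under the 1.5-fold limit. With another clustering or UMI minimum, or without the shallow cluster 1, the counts lay between 1 and 3 higher and between 0 and 3 lower.

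In smooth muscle-like nuclei smoke over room air gave 3 of 31 genes higher (9.68%, background 8.14%) and 3 lower (9.68%, background 2.94%), with a median log2 ratio of -0.05 against 0.08 for all genes. The lower genes were receptors that this class carries at a higher level than other nuclei. Itga9 was 1434 CPM in room air and 930 in smoke (ratio 0.649, 0.618 to 0.682), Itgb8 362 and 174 (ratio 0.481, 0.433 to 0.534) and Itga2 77.1 and 37.0 (ratio 0.480, 0.381 to 0.604), and all 3 lay above their level in other nuclei of the room air library. A single nucleus held 138 of the 757 Itgb8 UMIs and 53 of the 161 Itga2 UMIs in room air. Without that nucleus Itga2 no longer passed the rule (ratio 0.706, 0.546 to 0.914), whereas Itgb8 did (ratio 0.580, 0.519 to 0.648). The higher genes were Itgax, from 15.3 to 31.6 CPM, and Itga4, from 35.9 to 54.1, both leukocyte chains below their level in other nuclei, and Itgb6, with 0 and 22 UMIs, of which 19 lay in 1 nucleus, at least 3.91-fold higher against a floor of 3 counts. Without the nucleus with most of its UMIs neither Itgb6 nor Itga4 passed the rule, and Itga4 turned to a log2 ratio of -0.64 after thinning. The 10 macrophage markers summed to 722 CPM in room air and 840 in smoke in smooth muscle-like nuclei with none at 0, and their part in the higher leukocyte chains was not tested. Without the highest Scrublet scores 0 genes were higher, and without the mitochondrial limit 1 was.

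Fibroblast-like nuclei had more members past the rule. Smoke over room air gave 9 of 28 genes higher (32.1%, background 8.77%) and 1 lower (3.57%, background 2.57%), with a median log2 ratio of 0.38 against 0.09 for all genes. Laminin chains were among them. Lamc3 went from 4 to 48 UMIs, or 2.01 to 11.9 CPM (ratio 5.91, 2.17 to 22.6), Lamb1 from 14.0 to 25.9 CPM (ratio 1.85, 1.21 to 2.91) and Lama3 from 11.03 to 23.5 CPM (ratio 2.13, 1.33 to 3.55). The collagen receptor Itga11 went from 26.1 to 45.7 CPM (ratio 1.75, 1.28 to 2.43). Lamc3, Lamb1 and Itga11 lay above their level in other nuclei. With a minimum of 1000 UMIs per nucleus the log2 ratio of Lama3 was -0.30, in the opposite direction. With every nucleus thinned to 500 UMIs 3 genes were higher in smoke and the median log2 ratio was 0.08, against 0.03 for all genes.

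The other named genes that were higher in smoke in fibroblast-like nuclei were below their level in other nuclei, as was Lama3. Itga6 went from 41.1 to 90.7 CPM (ratio 2.21, 1.73 to 2.84), Itga9 from 257 to 450 (ratio 1.75, 1.58 to 1.93), Itgb4 from 8.52 to 19.8 (ratio 2.32, 1.36 to 4.18) and Itga8 from 25.6 to 40.5 (ratio 1.58, 1.15 to 2.21). Without the nucleus with most of its UMIs Itga8 no longer passed the rule (ratio 1.41), and after thinning its log2 ratio was -0.23. Itgam was the gene that was lower, from 25.1 to 15.1 CPM (ratio 0.601, 0.407 to 0.892), also below its level in other nuclei, and it did not pass the rule with a minimum of 1000 UMIs, without the mitochondrial limit, without the highest Scrublet scores or without the nucleus with most of its UMIs, and after thinning its log2 ratio was 0.29. The 10 macrophage markers summed to 617 CPM in room air and 881 in smoke in this class with none at 0, and smooth muscle markers to 141, with Kcnmb1 at 0, and 264. Endothelial markers went the other way, from 390 CPM in room air to 314 in smoke with none at 0. Their part in these ratios was not tested.

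Endothelial-like nuclei had 5 of 33 genes higher in smoke (15.2%, background 11%) and 0 lower (background 1.91%), or 1 lower without the mitochondrial limit or with nuclei thinned to 500 UMIs. The median log2 ratio was 0.26 against 0.11 for all genes. Itga6 went from 49.8 to 87.6 CPM (ratio 1.76, 1.62 to 1.92), Itga8 from 5.35 to 16.8 (ratio 3.15, 2.47 to 4.04) and Itga2 from 8.85 to 17.5 (ratio 1.98, 1.62 to 2.43). Itga4 went from 29.0 to 43.6 CPM and Itgae from 0.701 to 1.87. All 5 lay below their level in other nuclei, and Itga4 did not pass the rule without the nucleus with most of its UMIs (ratio 1.45). Marker sums of other cells were higher in smoke with none at 0 in either library, with smooth muscle markers at 229 and 321 CPM, macrophage markers at 564 and 771 and adipocyte markers at 90.7 and 138, and their part in these ratios was not tested. Within the 4 endothelial-like clusters Itga6 was higher in smoke in each, by 1.06 to 1.48 times, and passed the rule in none. Cluster 7, which held Itga6 at 415 and 439 CPM, made up 3.71% of the class in room air and 8.30% in smoke.

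Aneurysm over smoke gave many genes past the rule in macrophage-like nuclei. Of 34 genes, 7 were lower (20.6%, background 7.59%) and 11 higher (32.4%, background 15%), with a median log2 ratio of 0.45 against 0.06 for all genes. With a minimum of 1000 UMIs the counts were 3 lower and 5 higher. Of the 7 lower genes, 6 were receptors that lay above their level in other nuclei of the smoke library. Itga6 went from 412 to 116 CPM (ratio 0.282, 0.247 to 0.320), Itgav from 665 to 254 (ratio 0.383, 0.351 to 0.417) and Itgb5 from 446 to 206 (ratio 0.461, 0.418 to 0.507). Itgb3 went from 51.4 to 21.9 CPM (ratio 0.426, 0.311 to 0.569), Itgax from 218 to 113 (ratio 0.519, 0.454 to 0.590) and Itga9 from 557 to 318 (ratio 0.570, 0.527 to 0.616). Itga6, which binds laminin, and Itgav with Itgb3 or Itgb5, which bind RGD ligands, were thus lower together. The seventh, Itgae, had 99 and 0 UMIs and was at least 1.27-fold lower against a floor of 3 counts, and it was below its level in other nuclei and did not pass the rule without the nucleus with most of its UMIs.

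Itgam and Itgb2, the chains of Mac-1, did not pass the rule, at 122 and 154 CPM and at 88.4 and 75.6 CPM. The macrophage-like class itself was made up differently. Cluster 1, the shallow one, held 14.8% of it in smoke and 47.3% in aneurysm, cluster 20, led by Cd163 and F13a1, 3.05% and 26.7%, and cluster 4 28.9% and 5.52%. Ratios were therefore taken within the 5 clusters with at least 50 nuclei in both libraries. Itga6 was lower in 5 of 5 and past the rule in 5, at 0.189 to 0.601 times its smoke level. Itgav was lower in 5 of 5, with 4 past the rule, at 0.337 to 0.727 times, and Itgb5 likewise at 0.327 to 0.760 times. Itgax was lower in 4 of 5, with 1 past the rule, at 0.330 to 1.04 times. In cluster 20 Itga6 was at 90.6, 112 and 21.2 CPM, Itgav at 111, 163 and 61.7 and Itgax at 13.9, 26.7 and 8.82, in each library below the other macrophage-like clusters, whereas Itgam was at 244, 302 and 323. Itga9 was lower in 5 of 5 clusters with 2 past the rule, and Itgb3, which at 136, 150 and 89.5 CPM was mostly a gene of cluster 2, in 4 of 5 with 2 past it.

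**Figure D3:**
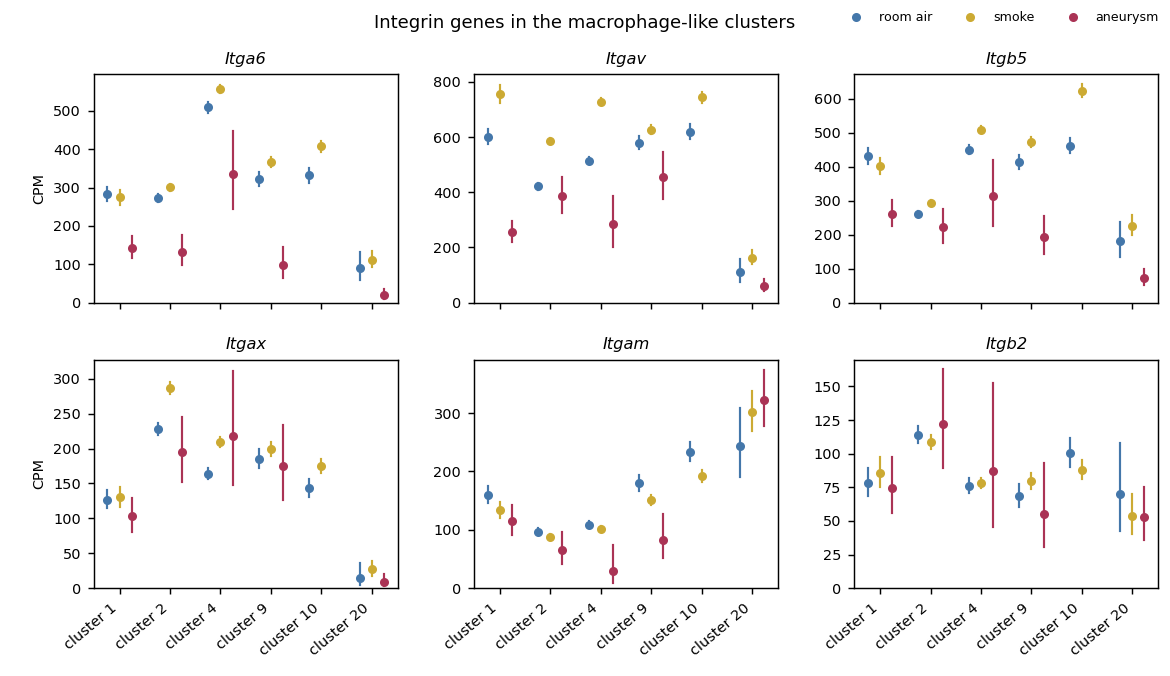
Points give the CPM of 6 integrin genes in each macrophage-like cluster with at least 50 nuclei in the library, coloured by library, with 95% Poisson intervals for counting error; cluster 10 has no aneurysm point because it held 26 nuclei there. Itga6 and Itgb5 lie below smoke in the aneurysm library in every cluster shown, whereas the Itgam points are highest in cluster 20 in all 3 libraries, with an interval that overlaps cluster 10 in room air.

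The 11 genes that were higher in aneurysm in macrophage-like nuclei were all below their level in other nuclei of that library. The 8 with the bounds farthest from 1 were Lama4 (4.30 to 34.2 CPM, ratio 7.97), Lama5 (1.19 to 8.56, ratio 7.17), Lama2 (4.13 to 18.6, ratio 4.49), Lamb1 (1.65 to 8.09, ratio 4.89), Itga1 (9.88 to 24.7, ratio 2.50), Itga7 (1.40 to 4.76, ratio 3.41), Itga10 (2.54 to 7.14, ratio 2.81) and Itgb8 (5.22 to 11.4, ratio 2.19). Lama4, for one, was at 426 CPM in the other nuclei of the aneurysm library. Within the 5 clusters Lama4 was higher in 5 with 4 past the rule, and Lama5 in 5 with 1 past it. Lama2 was higher in 4 clusters with 2 past the rule, Lamb1 and Itgb8 in 4 with 1, Itga1 in 3 with 1, Itga10 and Itga11 in 4 with 0, and Itga7 in 2 with 0. Lamc1 did not pass the rule over the class without the nucleus with most of its UMIs (ratio 1.45, 1.29 to 1.63). With every nucleus thinned to 500 UMIs 3 genes were higher and the median log2 ratio of the group was -0.13, against 0.45 unthinned, and Itga7 and Itga8 reversed, as did Itga11 with a minimum of 1000 UMIs. Markers of wall cells moved with them in this class. The 10 smooth muscle markers summed to 40.3 CPM in smoke and 98.0 in aneurysm, where Des and Kcnmb1 were at 0, and the 10 fibroblast markers to 141 and 234 with none at 0. The 10 endothelial markers summed to 141 and 174 CPM with none at 0. Adipocyte markers went the other way, from 622 to 575 CPM with Lep at 0 in both libraries. Their part in these ratios was not tested.

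In smooth muscle-like nuclei aneurysm over smoke gave 6 of 30 genes higher (20.0%, background 6.5%) and 5 lower (16.7%, background 7.41%), with a median log2 ratio of -0.02 against -0.09 for all genes. The higher genes included 3 laminin chains. Lama5 went from 108 to 181 CPM (ratio 1.68, 1.27 to 2.20), Lamc1 from 150 to 283 (ratio 1.89, 1.51 to 2.34) and Lamb2 from 32.1 to 55.5 (ratio 1.73, 1.01 to 2.81). Itga7 went from 42.4 to 96.4 CPM (ratio 2.28, 1.52 to 3.32) and Itga5 from 136 to 269 (ratio 1.98, 1.57 to 2.48). All 5 lay above their level in other nuclei, and the sixth, Itgb4, from 5.10 to 20.4 CPM, lay below it. In the aneurysm library single nuclei held 38 of the 97 Lamc1 UMIs, 27 of the 92 Itga5 UMIs, 12 of the 62 Lama5 UMIs and 4 of the 7 Itgb4 UMIs. With the nucleus richest in each gene left out of that library, 1 of the 6, Itga7, still passed the rule (ratio 1.85, 1.16 to 2.83). The ratios without it were 1.17 (0.878 to 1.53) for Lamc1, 1.43 (1.09 to 1.85) for Itga5 and 1.46 (1.06 to 1.95) for Lama5, and Lamb2 (1.66, 0.935 to 2.76) and Itgb4 (1.76, 0.335 to 5.93) had intervals that held 1.

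The lower genes in smooth muscle-like nuclei included Lama2, from 236 to 134 CPM (ratio 0.569, 0.414 to 0.766), Itgb3, from 112 to 58.4 (ratio 0.520, 0.315 to 0.814), and Itgb5, from 342 to 172 (ratio 0.503, 0.381 to 0.653), each above its level in other nuclei. Itgav went from 193 to 81.8 CPM (ratio 0.425, 0.280 to 0.619) and Itgax from 31.6 to 2.92 on 124 and 1 UMIs (ratio 0.0923, 0.00232 to 0.524), both below their level in other nuclei of the smoke library. The 10 macrophage markers summed to 840 CPM in smoke and 602 in aneurysm, where Cd68 was at 0, and the 10 smooth muscle markers to 6782 and 9353. The 10 fibroblast markers, of the class where Lama2 is highest, summed to 1334 CPM in smoke and 865 in aneurysm with none at 0. Their part was not tested. The class held 131 nuclei in the aneurysm library.

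Fibroblast-like nuclei had the largest count of lower genes among the 4 classes. Aneurysm over smoke gave 12 of 31 genes lower (38.7%, background 13.8%) and 5 higher (16.1%, background 10.1%), with a median log2 ratio of -0.07 against 0.00 for all genes. Laminin chains went both ways in the class. Lama2 went from 1455 to 819 CPM (ratio 0.563, 0.528 to 0.599) and Lamc3 from 48 to 0 UMIs, at least 5.66-fold lower against a floor of 3 counts, while Lamb1 went from 25.9 to 101 CPM (ratio 3.88, 2.99 to 5.04) and Lamc1 from 336 to 558 (ratio 1.66, 1.52 to 1.82). Itgb4 went from 19.8 to 60.8 CPM (ratio 3.08, 2.24 to 4.22), with 19 of 87 UMIs in 1 nucleus, and Itga11 from 45.7 to 75.5 (ratio 1.65, 1.29 to 2.10). Lamc1, Itgb4 and Itga11 lay above their level in other nuclei, and Lamb1, at 102 CPM in the other nuclei, and Itga7, from 3.46 to 11.2 CPM, did not. At resolution 2 a fibroblast-like cluster led by C7 held 458, 581 and 531 nuclei in room air, smoke and aneurysm. Another, with Cd55 among its leading genes, held 20, 40 and 194, and 1 more held 6, 47 and 0. The part of this make-up in the ratios was not tested.

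Of the lower genes in fibroblast-like nuclei, 3 (Lama2, Lamc3 and Itgb8) lay above their level in other nuclei and 9 below. Itga4 went from 67.5 to 13.3 CPM (ratio 0.197, 0.117 to 0.313), Itgax from 38.5 to 11.9 (ratio 0.308, 0.175 to 0.510) and Itgav from 250 to 101 (ratio 0.405, 0.338 to 0.482). Itga9 went from 450 to 186 CPM (ratio 0.414, 0.362 to 0.471), Itga8 from 40.5 to 14.0 (ratio 0.345, 0.205 to 0.550) and Lama3 from 23.5 to 5.59 (ratio 0.238, 0.0999 to 0.489), whose log2 ratio was 0.045 with a minimum of 1000 UMIs. Markers of leukocytes were lower with them. The 10 macrophage markers summed to 881 CPM in smoke and 294 in aneurysm, with none at 0, and the 10 T or NK markers to 119, with Klrb1c and Ncr1 at 0, and 22.4, with 6 at 0. Endothelial markers were at 314 and 467 CPM with none at 0, and adipocyte markers at 179, with Adipoq, Lep and Plin1 at 0, and 256, with none at 0. Their part in these ratios was not tested.

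Endothelial-like nuclei had 5 of 33 genes higher in aneurysm than in smoke (15.2%, background 8.32%) and 7 lower (21.2%, background 12.3%), with a median log2 ratio of -0.07 against -0.02 for all genes. Of 10 laminin chains measured, 4 were higher and 0 lower. Lama5 went from 36.4 to 72.5 CPM (ratio 1.99, 1.71 to 2.32), Lamb2 from 21.02 to 34.9 (ratio 1.66, 1.33 to 2.06), Lama4 from 179 to 302 (ratio 1.69, 1.57 to 1.82) and Lama2 from 4.53 to 13.1 (ratio 2.88, 1.94 to 4.22). Lama5 and Lamb2 lay above their level in other nuclei, and Lama2, Lama4 and the fifth gene, Itga10, from 3.50 to 8.16 CPM, below it. The lower genes were all integrins below their level in other nuclei. Itga9 went from 397 to 187 CPM (ratio 0.471, 0.432 to 0.513), Itgb5 from 110 to 46.7 (ratio 0.425, 0.357 to 0.504) and Itga4 from 43.6 to 9.46 (ratio 0.217, 0.145 to 0.314). The leukocyte chains Itgax (26.6 to 6.85 CPM), Itgam (18.7 to 8.48), Itgb2 (12.01 to 2.29) and Itgb7 (3.84 to 1.30) were the others, and Itgb7 turned to a log2 ratio of 0.34 after thinning. The 10 macrophage markers summed to 771 CPM in smoke and 371 in aneurysm in this class and the 10 adipocyte markers to 138 and 319, with none at 0, and their part was not tested.

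The endothelial-like clusters differed in share too, with cluster 7 at 8.30% of the class in smoke and 35.8% in aneurysm and cluster 6 at 24.5% and 3.16%. Lama5 was higher and past the rule in 3 of the 3 clusters that could be compared, at 1.78 to 2.35 times. Lama4 differed between clusters, with ratios of 1.42 (1.29 to 1.55) in cluster 5, 0.967 (0.817 to 1.14) in cluster 7 and 3.21 (2.58 to 3.98) in cluster 8. In cluster 8 Lama3 went from 64.3 to 322 CPM (ratio 5.00, 3.91 to 6.38) and Itgb4 from 57.6 to 152 (ratio 2.64, 1.90 to 3.63), while in cluster 5 they were 0.832 and 1.13 times the smoke level. Lama3 is among the 10 leading genes of cluster 8, so its level against other clusters is not a finding. Over the whole class the Lama3 levels of the libraries lay close together, as given above. At resolution 2 Lama3 was among the leading genes of an endothelial-like cluster led by Ssu2 and Sema3g, which do not lead cluster 8. Whether cluster 8 held the same kind of nuclei in each library was not tested. Itga6 in clusters 5 and 8 was 0.410 and 0.323 times its smoke level, and in cluster 7 it was at 415, 439 and 480 CPM in the 3 libraries, with overlapping intervals.

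**Figure D4:**
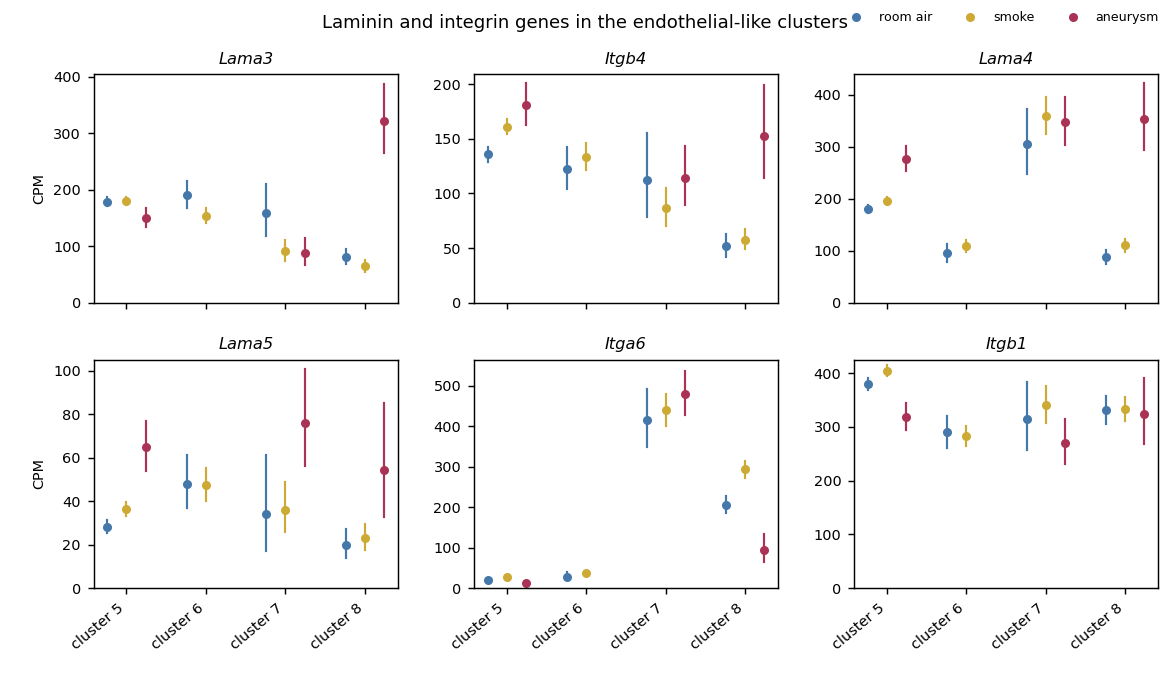
Points give the CPM of 6 laminin and integrin genes in each endothelial-like cluster with at least 50 nuclei in the library, coloured by library, with 95% Poisson intervals for counting error; cluster 6 has no aneurysm point because it held 32 nuclei there. Cluster 8 in the aneurysm library lies above room air and smoke for Lama3, Itgb4 and Lama4, Lama5 lies above smoke in clusters 5, 7 and 8, and Itga6 is highest in cluster 7.

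The 2 unnamed clusters near muscle and fibroblasts gave their own pattern. In cluster 12 smoke over room air gave 3 of 32 genes higher (9.38%, background 7.14%) and 3 lower (9.38%, background 3.05%). Itga8 was 2.03 times as high (1.92 to 2.15), above its level in other nuclei. Lama1 (4.19 to 7.86 CPM) and Itgam (5.58 to 9.24) were also higher and Itga10 (25.4 to 16.8), Lama2 (11.6 to 6.01) and Lamb1 (38.6 to 21.3) lower, of which Itgam and Lama2 lay below other nuclei. Lamb1 turned to a log2 ratio of 0.31 after thinning, and Lama1, Itgam and Itga10 did not pass the rule without the nucleus with most of their UMIs. Aneurysm over smoke in cluster 12 gave 6 of 31 higher (19.4%, background 5.53%) and 4 lower (12.9%, background 6.23%), a split of 5 and 6 with TMM scaling. Itga8 was 1.91 times as high (1.78 to 2.04), and Lama4 went from 88.0 to 244 CPM (ratio 2.77, 2.33 to 3.28), Lama5 from 126 to 190 (ratio 1.52, 1.25 to 1.82) and Itga5 from 115 to 250 (ratio 2.17, 1.84 to 2.56). Lama4 lay below its level in other nuclei, and the others above. Without the nucleus with most of their UMIs Itga8 was 1.60 times as high and Lama5 did not pass the rule (ratio 1.49). Itga6, Itgav, Itgb3 and Itgb5 were lower, at 0.385 (Itga6) to 0.537 (Itgav) times, with Itga6 and Itgav below other nuclei. The 10 smooth muscle markers summed to 3529, 3723 and 5398 CPM over the 3 libraries in cluster 12 and the 10 fibroblast markers to 3701, 2801 and 2450, with none at 0, and their part was not tested.

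In cluster 13 smoke over room air gave 5 of 31 genes higher (16.1%, background 7.98%) and 2 lower (6.45%, background 2.48%), and aneurysm over smoke 4 higher (12.9%, background 7.54%) and 10 lower (32.3%, background 12%). Itga8 went from 83.0 to 169 CPM with smoke (ratio 2.04, 1.85 to 2.26). The lower genes in aneurysm included Itgav (232 to 128 CPM), Itgb5 (387 to 217), Itga9 (385 to 196) and Itga2 (122 to 74.1), and the higher ones Lama4 (76.8 to 169) and Lama2 (55.9 to 96.3), both below their level in other nuclei. The cluster 13 counts also held Itgam, Itgb2, Itgae and Itgb7, higher in smoke and all below other nuclei, of which Itgam and Itgb7 did not pass the rule without the nucleus with most of their UMIs and Itgb2 turned to a log2 ratio of -0.27 after thinning. In smoke over room air the smooth muscle markers of cluster 13 went from 706 to 1000 CPM and its macrophage markers from 555 to 754, with none at 0, and their part was not tested. Of the 10 genes lower in aneurysm 3 lay above their level in other nuclei of the smoke library. The 10 macrophage markers summed to 754 CPM in smoke and 327 in aneurysm in cluster 13 with none at 0, and their part was not tested.

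**Figure D5:**
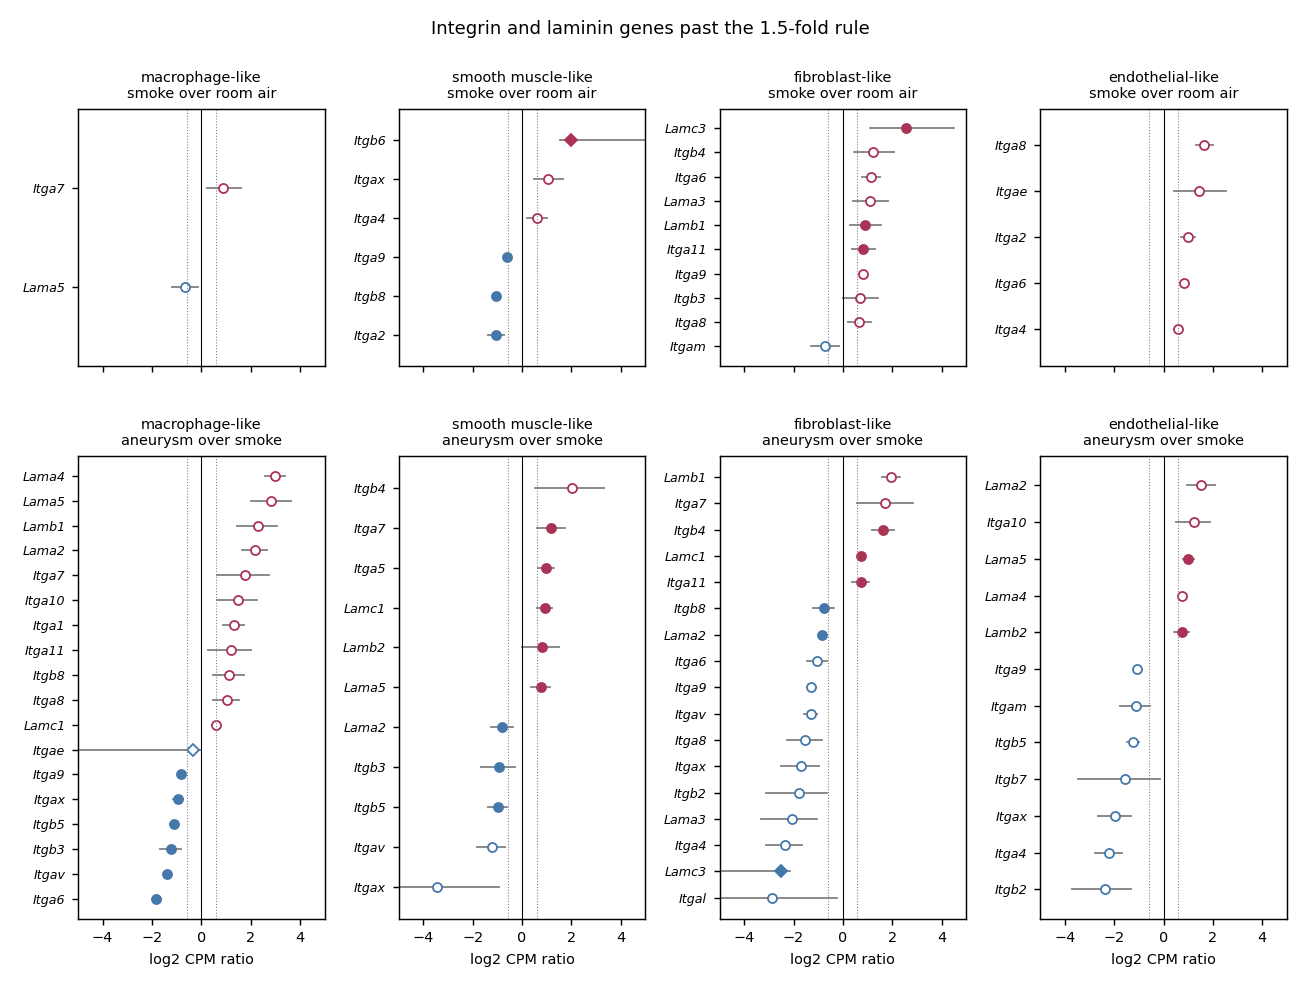
Points give the log2 CPM ratio of each integrin or laminin gene past the 1.5-fold rule in 4 cell classes, smoke over room air above and aneurysm over smoke below, with 95% counting intervals, cut at the edge of the axis; red is higher, blue lower, dotted lines mark 1.5-fold, and diamonds are ratios against a floor of 3 counts. Filled points lie above and open points below the gene's level in all other nuclei of the library where it was higher, so the 11 red points of macrophage-like nuclei in aneurysm are all open and 6 of the 7 blue points there are filled.

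Laminin genes taken alone had a higher median log2 ratio of aneurysm over smoke than integrin genes in each unit, with 0.56 against -0.40 in endothelial-like, 0.47 against -0.07 in smooth muscle-like, 0.47 against -0.25 in fibroblast-like and 2.17 against -0.02 in macrophage-like nuclei, where the 5 laminin genes past the rule lay below their level in other nuclei. The laminin medians rest on 7 to 10 genes. The median interval bounds overlapped in fibroblast-like nuclei, at -0.69 to 0.86 for laminin and -0.52 to 0.19 for integrin genes. They also overlapped in smooth muscle-like and endothelial-like nuclei. In endothelial-like nuclei the 7 integrin genes lower past the rule lay below other nuclei. The 3 laminin genes higher in smooth muscle-like nuclei did not pass without their richest nucleus. The order of laminin and integrin medians was not tested. In clusters 12 and 13 the medians were 0.59 against -0.40 and 0.53 against -0.69. In smoke over room air the laminin median was above the integrin median in fibroblast-like nuclei (0.67 against 0.31) and below it in endothelial-like (0.12 against 0.26), smooth muscle-like (-0.06 against 0.05) and macrophage-like nuclei (-0.33 against 0.22).

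A further 3 lists cover the proteins around integrins: 30 adaptors and activators, 30 ligands other than laminins and collagens, of which 29 were found, and 30 other basement membrane and laminin-binding genes. In smoke over room air the background shares of all genes higher and lower were 7.49% and 3.46% in macrophage-like, 8.14% and 2.94% in smooth muscle-like, 8.77% and 2.57% in fibroblast-like, and 11% and 1.91% in endothelial-like nuclei. Adaptors had 0 of 29 past the rule in macrophage-like nuclei, 0 higher and 1 lower of 28 in smooth muscle-like, 1 and 0 of 29 in fibroblast-like, and 2 and 0 of 29 in endothelial-like nuclei. Ligands had 5 higher and 3 lower of 25, 3 and 0 of 21, 7 and 0 of 22, and 8 and 0 of 24 in the same order of classes. Basement membrane genes had 1 higher and 1 lower of 28, 0 and 1 of 28, 2 and 2 of 28, and 5 and 0 of 28.

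The matricellular ligand Ccn2 was higher in smoke in 3 classes, from 62.7 to 139 CPM in endothelial-like (ratio 2.22, 2.06 to 2.39), from 41.6 to 102 in fibroblast-like (ratio 2.45, 1.93 to 3.14) and from 7.25 to 14.9 in macrophage-like nuclei (ratio 2.05, 1.77 to 2.38). In endothelial-like nuclei it lay above its level in other nuclei, and in the other classes below. The laminin receptor Bcam went from 17.8 to 32.7 CPM in endothelial-like nuclei (ratio 1.83, 1.59 to 2.11), above its level in other nuclei. Svep1 and Tnn were also higher there, Tnn at a low level, from 0.191 to 1.38 CPM on 3 and 28 UMIs. In macrophage-like nuclei the tenascin Tnn went from 2.00 to 0.0551 CPM on 66 and 3 UMIs (ratio 0.0275, 0.00554 to 0.0841), the leukocyte ligand Icam1 from 30.3 to 18.7 and Npnt from 26.3 to 41.1. Fibroblast-like nuclei had less of the matricellular gene Smoc2 (409 to 240 CPM) and of dystrophin, Dmd (1567 to 998), both above other nuclei, and more Postn (22.6 to 47.4). In smooth muscle-like nuclei Ccn1 (218 to 348 CPM) and Mfge8 (36.4 to 66.6) were higher and Smoc2 and the talin Tln2 lower.

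In aneurysm over smoke the background shares higher and lower were 15% and 7.59%, 6.5% and 7.41%, 10.1% and 13.8%, and 8.32% and 12.3% in the same order of classes. This comparison had 9 adaptors higher and 3 lower of 29 in macrophage-like, 4 and 4 of 28 in smooth muscle-like, 2 and 4 of 28 in fibroblast-like, and 4 and 5 of 29 in endothelial-like nuclei. Ligands had 10 higher and 4 lower of 24, 0 and 5 of 21, 4 and 5 of 22, and 4 and 10 of 24, and basement membrane genes 14 and 1, 3 and 1, 1 and 9, and 2 and 5 of 28 in each class. In fibroblast-like nuclei the collagen chains Col4a3 (87.5 to 14.0 CPM, ratio 0.160), Col4a6 (368 to 84.5, ratio 0.230) and Col15a1 (142 to 34.9, ratio 0.247) were lower and the peptidase Dpp4 (31.9 to 226, ratio 7.08) higher, all above other nuclei in the library where they were higher. Endothelial-like nuclei had more Col15a1 (15.1 to 80.6 CPM, ratio 5.33) and Tnc (8.52 to 39.2, ratio 4.60), the second below other nuclei, and less Col4a4 (18.6 to 2.29, ratio 0.123) and Dpp4 (164 and 1 UMIs).

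Smooth muscle-like nuclei had more of the laminin-binding netrin Ntn4 in aneurysm, at 73.0 and 523 CPM (ratio 7.17, 5.91 to 8.67), and of the actin crosslinker Flna, at 726 and 1504 (ratio 2.07, 1.88 to 2.28), both above other nuclei. Genes of these further lists were not recomputed without their richest nucleus. When that was done for the 6 integrin and laminin genes higher in this class in aneurysm, 1 still passed the rule. Spp1, osteopontin, went from 376 to 108 CPM there and Tln2 from 46.2 to 111, both below other nuclei. In macrophage-like nuclei the named genes Sgcd (14.8 to 72.8 CPM), Sgce (1.89 to 9.51), Tnc (4.50 to 21.4) and Ptk2 (35.3 to 118) were all higher and all below other nuclei, as were the laminins past the rule there.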

How the data were processed

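The authors deposited raw counts of UMIs per gene and barcode for 3 single-nucleus libraries, 1 per group, and these counts were used as deposited. Per the file headers the matrices were written by cellranger 8.0.1. The version in the submitters' processing notes is 2.2.0, with STAR and mm10, and this difference could not be settled. The libraries held 13189, 14859 and 7348 barcodes and 73891039, 117247048 and 15634797 UMIs in room air, smoke and aneurysm. Nuclei were kept from 500 UMIs and 300 genes upward if mitochondrial UMIs were under 5%, and 2000 variable genes, 30 principal components, 20 neighbours and Leiden clustering at resolution 1 (scanpy 1.11.5) gave the clusters. A cluster was named from 10-gene or shorter marker sets of 21 classes and otherwise left without a name. Of the 37 genes, 10 were among the variable genes used for clustering. Doublets were left in: Scrublet called 367, 404 and 1 nuclei, where shares of 10.6%, 11.9% and 5.88% were expected. The low count in the aneurysm library does not show that it held few doublets, and its cause was not tested.

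UMIs were summed per class and library. Levels are CPM with exact Poisson 95% intervals, and ratios have exact conditional binomial 95% intervals (scipy 1.17.1). Intervals and the floor of 3 counts cover counting error only. Nuclei are not replicates and there is 1 library per group, so no p-value is given. In each class every gene past the rule was named, up to 8 per direction by the interval bound, and up to 4 genes of the further lists. The genes and lists were chosen with earlier results of these data known. The scripts were checked on simulated data. Of the 37 genes, 6 overlap another coding gene: Itga1 overlaps Pelo on the same strand, and Itga4, Itga7, Itgad, Itgae and Lamb3 overlap genes on the opposite strand. Alternatives were another UMI minimum (1000), no mitochondrial limit, resolution 2, clustering without the 37 genes, TMM scaling (edgeR 4.0.16), thinning to 500 UMIs, leaving out the 5% of nuclei with the highest Scrublet scores, and no gene minimum. Leaving out the shallow macrophage-like cluster 1 was chosen after seeing the data. One gene of the group is counted in the totals, and its values are not reported here.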

Additional observations from a re-analysis of the deposited data

Results flagged for a closer look

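For 7 genes the ratio passed the 1.5-fold rule upward in one class and downward in another in the same comparison. The differences between classes were not tested, and there is 1 library per group.

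In smoke over room air, Itga2 was at 0.480 times its room air level in smooth muscle-like nuclei and at 1.98 times in endothelial-like nuclei. Without 1 nucleus that held 53 of its 161 room air UMIs, Itga2 in smooth muscle-like nuclei was at 0.706 times and no longer past the rule. Itga9 was at 0.649 times in smooth muscle-like and at 1.75 times in fibroblast-like nuclei. Itga2 in endothelial-like and Itga9 in fibroblast-like nuclei lay below their level in other nuclei, and both lay above it in smooth muscle-like nuclei. Lamb1 was at 1.85 times in fibroblast-like nuclei and at 0.550 and 0.589 times in clusters 12 and 13, and in cluster 12 it turned to a log2 ratio of 0.31 with nuclei thinned to 500 UMIs. In cluster 13 Lamb1 lay below its level in other nuclei. Itgam was at 0.601 times in fibroblast-like nuclei and at 1.66 and 1.51 times in clusters 12 and 13, all below its level in other nuclei. In fibroblast-like nuclei Itgam turned to a log2 ratio of 0.29 after thinning, and in all 3 units it no longer passed the rule without the nucleus with most of its UMIs.

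In aneurysm over smoke, Lama2 was at 0.563 times its smoke level in fibroblast-like and 0.569 times in smooth muscle-like nuclei, where it lies above its level in other nuclei. It was at 4.49 times in macrophage-like, 2.88 times in endothelial-like and 1.72 times in cluster 13 nuclei, where it lies below that level. Itga8 was at 2.03 times in macrophage-like nuclei and 1.91 times in cluster 12, and at 0.345 times in fibroblast-like nuclei, and in macrophage-like nuclei it turned to a log2 ratio of -0.58 after thinning. Itgb8 was at 2.19 times in macrophage-like and 0.588 times in fibroblast-like nuclei. Itga8 in macrophage-like and fibroblast-like nuclei and Itgb8 in macrophage-like nuclei lay below their level in other nuclei.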

How the results depend on the processing

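Of 250 summary values recomputed under the alternatives, 213 kept their size and 37 moved, and of 921 values of single genes 810 kept it, 97 moved and 14 reversed. No paired analysis was possible because there is 1 library per group. Clusters 12 and 13 carry no name by which to find them again, so the alternatives that cluster the nuclei anew were not run for them. TMM scaling reversed none of these values, and in aneurysm over smoke in macrophage-like nuclei it moved the median log2 ratio of all genes by -0.18 and gave 10 genes higher and 9 lower. Each integrin or laminin ratio past the rule was also taken without the nucleus with the most UMIs of that gene in the library where it was higher. That step was chosen after seeing the data and did not cover the 3 further lists, and 97 ratios still passed and 21 did not.

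In macrophage-like nuclei smoke over room air gave 3 genes higher and 0 lower with the 37 genes left out of clustering, 3 higher with a minimum of 1000 UMIs, 2 higher without the mitochondrial limit, 2 higher and 3 lower at resolution 2, 0 lower after thinning, and 3 higher and 0 lower without cluster 1. Aneurysm over smoke there gave 5 higher and 3 lower with a minimum of 1000 UMIs and 3 higher after thinning. The smoke comparison gave 1 higher gene in smooth muscle-like nuclei without the mitochondrial limit, 0 lower in fibroblast-like nuclei with 1000 UMIs or without that limit, and 1 lower in endothelial-like nuclei without it. Without the highest Scrublet scores it gave 0 higher in smooth muscle-like, 0 lower in fibroblast-like and 3 higher in cluster 13 nuclei.

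Thinning leaves fewer UMIs by construction. For smoke over room air it gave 0 genes higher and 1 lower in smooth muscle-like, 3 and 0 in fibroblast-like, 3 and 1 in endothelial-like and 2 and 0 in cluster 13 nuclei, and 0 lower in cluster 12. For aneurysm over smoke it gave 1 and 2 in smooth muscle-like, 2 and 6 in fibroblast-like, 2 and 2 in cluster 12 and 2 and 6 in cluster 13 nuclei, and 3 lower in endothelial-like nuclei.

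The log2 ratios that reversed after thinning were, for smoke over room air, Lama5 in macrophage-like (1.08), Itga4 in smooth muscle-like (-0.64), Itga8 and Itgam in fibroblast-like (-0.23 and 0.29), Lamb1 in cluster 12 (0.31) and Itgb2 in cluster 13 nuclei (-0.27). For aneurysm over smoke they were Itga8 and Itga7 in macrophage-like (-0.58 and -0.47), Itgb7 in endothelial-like (0.34), and Itgb3 and Itgb4 in cluster 13 nuclei (0.26 and -0.045). With a minimum of 1000 UMIs, Itga11 in macrophage-like nuclei (-0.37, aneurysm over smoke) and Lama3 in fibroblast-like nuclei (-0.30 for smoke over room air and 0.045 for aneurysm over smoke) reversed. The cause was not tested. The class with the highest mean Lama4 turned from smooth muscle-like to fibroblast-like with the 37 genes left out of clustering and with 1000 UMIs.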

Other observations

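Some clusters without a name lay outside the comparisons because the aneurysm library held fewer than 50 of their nuclei. Cluster 21, led by Il1r2 and Ctnnd2, scored highest for dendritic markers and held 447 nuclei in room air and 580 in smoke. Its Itgax level was 236 CPM (211 to 264) and 276 CPM (257 to 296), its Itgb2 level 99.3 and 113 CPM, and its Itgb7 level 75.0 and 83.6 CPM, a chain that macrophage-like nuclei carry at low level. Cluster 15, led by Neil3 and the proliferation gene Mki67, held 201 and 279 nuclei and had Itgav at 408 CPM (376 to 442) and 544 CPM (516 to 573) and Itga6 at 246 and 329 CPM. In lymphatic endothelial-like nuclei Itgb4 was at 22.5 CPM (8.24 to 48.9) in smoke and 210 CPM (138 to 306) in aneurysm, from 6 and 27 UMIs in 68 and 69 nuclei.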
